A study of Mus musculus with 11 samples.

Results

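The 38 genes described here encode the machinery that burns fatty acids, together with the PPAR nuclear receptors, their coactivators and several of their best known targets. They were taken by symbol from a list of PPAR factors and targets, mitochondrial and peroxisomal beta-oxidation enzymes and ketone body enzymes, and all 38 were found among the 54513 genes of the count table. RNA was sequenced from epithelial cells of the mouse colon that had been cleared of lymphocytes on Percoll, a density medium. Wild-type (WT) mice were compared with double knockout (DKO) mice, in which 2 microRNA clusters, miR-181a1-b1 and miR-181a2-b2, are deleted. Mice of both genotypes were examined at baseline or after dextran sulphate sodium (DSS), given at 2% for 7 days with 2 days to recover. The polymer DSS damages the lining of the colon and brings on colitis. The groups held 2 baseline WT, 3 baseline DKO, 3 DSS WT and 3 DSS DKO libraries. The labels give no strain, age or sex, and do not say whether a library came from 1 mouse or whether WT mice were littermates of the DKO mice.

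Fatty acids enter the cell with the help of transporters and binding proteins, are activated to acyl-CoA, and are carried into the mitochondrion by the carnitine shuttle. There, dehydrogenases, hydratases and thiolases shorten them in cycles and hand electrons to the electron transfer flavoprotein. PPARs are nuclear receptors that bind fatty acids, pair with RXR on DNA repeats called DR1 elements, and switch on many genes of this pathway. In the colon, epithelial cells near the surface draw much of their energy from oxidising butyrate, a bacterial fatty acid.

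The deleted microRNAs share 1 seed, the stretch at bases 2 to 8 that pairs with target messages. It is shown in capitals in the mature sequences from RefSeq (GRCm38.p6), of which each is made from a locus on chromosome 1 and another on chromosome 2.
miR-181a-5p: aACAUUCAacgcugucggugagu
miR-181b-5p: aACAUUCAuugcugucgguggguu

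A match to this seed was found in 4 of the 36 members (11.1%) whose annotated 3′ UTR has 100 bases or more, against 3310 of 14025 tested genes (23.6%). A longer 3′ UTR has more places for a match. Those of the 36 members ran from 113 to 3930 bases, and the lengths were not compared with those of all genes. The letters searched on the message strand were TGAATGT (called 7mer-m8), GAATGTA (7mer-A1) and TGAATGTA, which holds the other two. The 4 sites are shown because they are where the deleted microRNAs could pair with these messages, with the match in capitals and flanks from GENCODE M21 on GRCm38.
Pdk4: ttgctgcttcgTGAATGTgtgtggactcta
Acsl1: caacggggtttTGAATGTttgctttcagtg
Cd36: gcaaatttcaaGAATGTAcattctgagaaa
Decr1: gatctatgcaaGAATGTAgagtttctgttt

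Pdk4 is the only gene of these 4 that passed the test between genotypes after DSS. Angptl4, which had the largest log2 fold change among the members above trace level, held no match in its 1637-base 3′ UTR. A match is a description of the letters and does not show that the microRNA acts there.

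Promoters were searched on both strands for DR1, the letters AGGTCA repeated with 1 free base between the copies, from 250 bases before to 50 after each RefSeq start. Of the 32 members with a promoter entry, 5 (15.6%) held a stretch that matched all but at most 2 of the 12 fixed letters, against 492 of 12735 tested genes (3.86%). Fabp1 was the only member with at most 1 letter off, and 0 of 32 matched in full. The 5 stretches are printed in capitals, 5′ to 3′ on the strand of the gene, because PPARs are known to bind elements of this kind.
Fabp1 (chr6:71199804-71199832, + strand): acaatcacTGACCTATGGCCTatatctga
Slc25a20 (chr9:108662134-108662162, + strand): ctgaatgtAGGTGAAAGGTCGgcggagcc
Cd36 (chr5:17835939-17835967, - strand): tggttctcTGGCCTCTGACTTacttggat
Plin2 (chr4:86670264-86670292, - strand): agctttcaGGACCCCTGACCTaagtcaga
Etfa (chr9:55512300-55512328, - strand): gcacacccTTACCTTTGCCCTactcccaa

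The stretch of Slc25a20 begins 6 bases after the RefSeq start, and the other 4 lie 63 to 225 bases before it. Fabp1 and Slc25a20 passed the test between genotypes after DSS, and Cd36, Plin2 and Etfa did not. Angptl4, Vnn1 and Acaa2, which also passed, had no promoter entry and were not searched, nor were Ppargc1b, Decr1 and Crat. Only the annotated starts in the promoter table were searched, 3 for Pparg, 2 each for Acsl1 and Bdh1, and 1 for each other member found there.

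Libraries held 41631951 to 52761900 counts. Levels are CPM, the counts of a gene relative to the size of its library, scaled by TMM to a common composition, and values are given in the order of the replicate numbers. Epcam, the epithelial adhesion molecule, was at 1096 to 1758 CPM, and none of the 10 epithelial markers examined was at 0. Xist was at 6.75 to 14.5 CPM in the baseline and 633 to 906 CPM in the DSS libraries, and the Y-linked Ddx3y at 42.6 to 54.9 and 0.162 to 0.895 CPM, so sex and DSS cannot be told apart in comparisons of DSS with baseline. An 18S ribosomal RNA entry took 23.0% and 8.46% of the counts in baseline DKO replicates 1 and 2, and 0.128% to 1.59% elsewhere.

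After DSS, 11 members were higher and 1 was lower in DKO than in WT, 26 did not pass, and at baseline none passed. The increases ran from the lipoprotein lipase inhibitor Angptl4 (15.5-fold) and the pyruvate dehydrogenase kinase Pdk4 (4.54-fold) to the long-chain dehydrogenase Acadl (1.54-fold) and the carnitine palmitoyltransferase Cpt1a (0.58 on the log2 scale), and the decrease was that of Fabp2, the intestinal fatty acid binding protein (1.98-fold). Of 19267 genes tested, 11.2% passed in this comparison, 5.26% higher and 5.98% lower, while 28.9% of the members were higher and 2.63% lower. The median log2 fold change was 0.34 over the members and 0.03 over all genes tested. The test was the quasi-likelihood F-test of edgeR, with p-values adjusted over all genes by Benjamini-Hochberg and a threshold of 0.05, and every adjusted p below comes from it. In bulk RNA, a smaller number of cells of a type and less RNA per cell cannot be told apart.

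**Figure D1:**
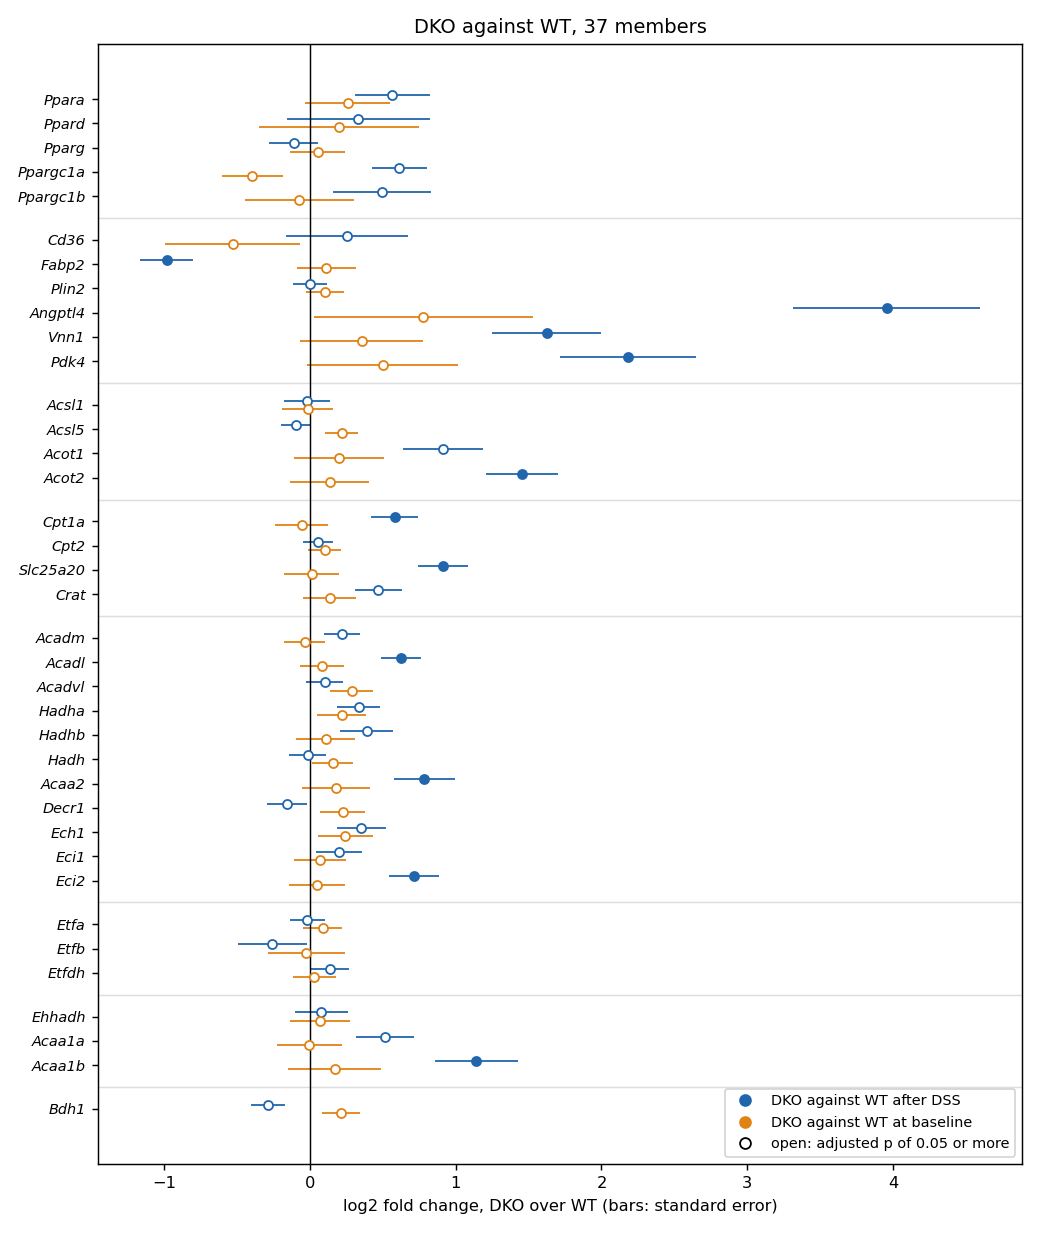
Log2 fold change of DKO over WT (x axis, with standard errors) for 37 members after DSS (blue) and at baseline (orange), ordered by role; filled points had an adjusted p under 0.05, and Fabp1, a trace gene, is left out. After DSS 10 of these members are filled to the right of 0 and Fabp2 to the left, and at baseline every point is open.

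Among the receptors and coactivators, none of 5 passed between genotypes after DSS. Ppara, the PPAR form best known for driving fatty acid oxidation, stood at 16.1 and 8.98 CPM in baseline WT, 20.4, 10.6 and 14.2 in baseline DKO, 32.0, 30.6 and 35.6 in DSS WT, and 38.3, 50.6 and 56.4 in DSS DKO. Its DSS DKO libraries all lay above its DSS WT libraries, but the difference of 0.57 ± 0.26 (log2, SE) had an adjusted p of 0.186. Ppargc1a, the coactivator PGC-1alpha that drives mitochondrial genes, was at 45.3, 53.1 and 53.2 CPM in DSS WT and 53.3, 84.4 and 94.2 in DSS DKO. Its groups touched but did not overlap, with DKO replicate 1 beside the highest WT library, and the difference of 0.61 ± 0.19 missed the threshold (adjusted p = 0.0549).

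Pparg, the form abundant in colonocytes, was at 139, 163 and 162 CPM in DSS WT and 113, 141 and 175 in DSS DKO. Ppard, the broadly expressed form, was at 65.0, 29.3 and 36.3 CPM in DSS WT and 101, 40.9 and 22.7 in DSS DKO. The libraries of both genes overlapped between genotypes after DSS. Ppargc1b, the related coactivator PGC-1beta, also overlapped and had a log2 fold change of 0.49 ± 0.34.

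The 7 genes of lipid uptake, binding and storage and other PPAR targets included 4 higher and 1 lower in DKO after DSS. Angptl4, on chromosome 17 (33773750 to 33781830, GRCm38), encodes a secreted inhibitor of lipoprotein lipase that PPARs and glucocorticoids induce. It stood at 0.647 and 1.51 CPM in baseline WT, 1.83, 1.60 and 2.10 in baseline DKO, 2.31, 5.01 and 4.95 in DSS WT, and 16.2, 76.9 and 98.1 in DSS DKO. Every DSS DKO library lay above all 8 others, and the log2 fold change of DKO over WT after DSS was 3.96 ± 0.64 (SE, adjusted p = 0.00631).

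Pdk4, on chromosome 6 (5483351 to 5496309), encodes the kinase that turns off pyruvate dehydrogenase and so shifts a cell from glucose to fat. It stood at 7.50 and 11.7 CPM in baseline WT, 12.7, 15.2 and 12.8 in baseline DKO, 16.6, 27.7 and 25.4 in DSS WT, and 35.1, 143 and 139 in DSS DKO. The DSS DKO libraries again lay above all others, and the log2 fold change after DSS was 2.18 ± 0.47 (adjusted p = 0.0190). Vnn1, a pantetheinase that recycles the precursor of coenzyme A, was at 8.21, 12.3 and 11.2 CPM in DSS WT and 17.2, 47.9 and 32.7 in DSS DKO, with no overlap and a log2 fold change of 1.62 ± 0.37 (adjusted p = 0.0212).

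Fabp2 moved the other way. It stood at 160 and 221 CPM in baseline WT, 221, 153 and 243 in baseline DKO, 227, 193 and 187 in DSS WT, and 88.2, 110 and 109 in DSS DKO. The DSS DKO libraries were the lowest of the 11, and the log2 fold change after DSS was -0.98 ± 0.18 (adjusted p = 0.00652). Fabp1, the liver-type binding protein, passed the test (adjusted p = 0.0305) on 48 counts summed over the DSS DKO libraries (4, 28 and 16) and 2 over the DSS WT libraries, with 13 in baseline WT and 4 in baseline DKO. At such counts it was a trace transcript in every group, and no fold change is given. Plin2, which coats lipid droplets, was at 121 to 126 CPM in DSS WT and 102 to 139 in DSS DKO, and Cd36, a fatty acid transporter, at 0.220 to 0.876 and 0.726 to 0.810 CPM. Both overlapped between the genotypes.

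**Figure D2:**
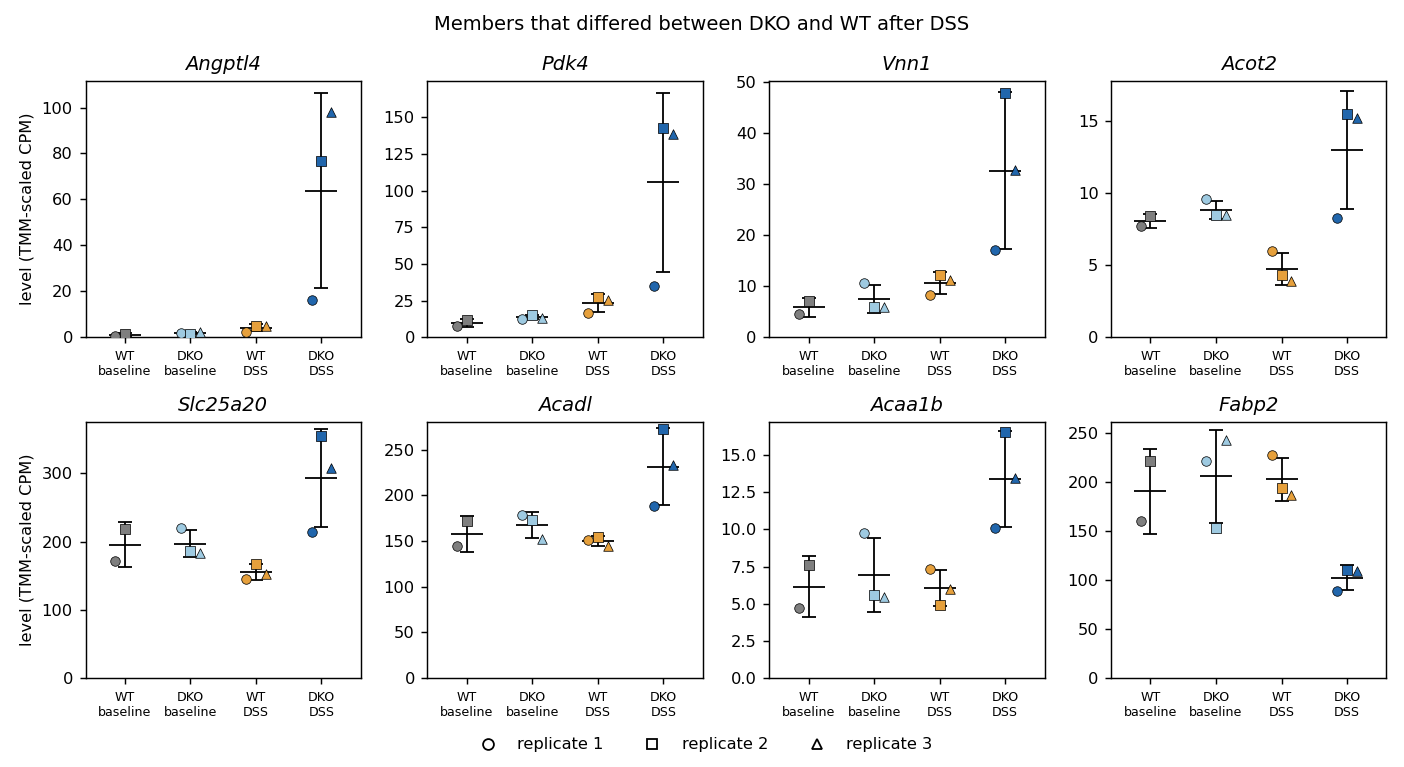
Levels (TMM-scaled CPM, y axes from 0) of 8 members in each library, by group; points are libraries with a shape per replicate number, horizontal lines group means and bars 1 SD. In Angptl4, Pdk4, Vnn1, Acadl and Acaa1b every DSS DKO library lies above all others, in Acot2 and Slc25a20 replicate 1 lies among the baseline libraries, and Fabp2 is lowest in the DSS DKO libraries.

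Among the synthetases and thioesterases, which join fatty acids to coenzyme A and split them from it, 1 of 4 passed. Acot2, a mitochondrial thioesterase, stood at 7.72 and 8.40 CPM in baseline WT, 9.60, 8.47 and 8.50 in baseline DKO, 6.01, 4.31 and 3.93 in DSS WT, and 8.27, 15.5 and 15.3 in DSS DKO. All DSS DKO libraries lay above all DSS WT libraries, while replicate 1 was within the range of the baseline libraries. The log2 fold change after DSS was 1.45 ± 0.25 (adjusted p = 0.00435). Acot1, its cytosolic neighbour on chromosome 12, was at 7.82, 8.91 and 8.75 CPM in DSS WT and 8.59, 19.0 and 20.3 in DSS DKO, and missed the threshold (0.91 ± 0.28, adjusted p = 0.0529). The coding sequences of Acot1 and Acot2 are identical at 95.5% of aligned bases, with an identical run of 273 bases, so the split of reads between them is uncertain. Acsl1 and Acsl5, which activate long-chain fatty acids, had log2 fold changes of -0.02 ± 0.16 and -0.10 ± 0.10.

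In the carnitine shuttle, 2 of 4 members were higher in DKO after DSS. Slc25a20, the carrier that exchanges acylcarnitine for carnitine across the inner membrane, stood at 172 and 219 CPM in baseline WT, 220, 187 and 184 in baseline DKO, 145, 168 and 153 in DSS WT, and 214, 355 and 309 in DSS DKO. The genotypes did not overlap after DSS, and the log2 fold change was 0.92 ± 0.17 (adjusted p = 0.00694). Cpt1a, which forms acylcarnitine at the outer membrane, was at 373, 416 and 435 CPM in DSS WT and 460, 621 and 749 in DSS DKO, a log2 fold change of 0.58 ± 0.16 (adjusted p = 0.0386). Its DSS DKO replicate 1 lay just above the highest DSS WT library and below every baseline library, which were at 463 to 576 CPM. Cpt2, which reverses the reaction inside the mitochondrion, had a log2 fold change of 0.05 ± 0.10, and Crat, a carnitine acetyltransferase, 0.47 ± 0.16 (adjusted p = 0.0859).

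Of 11 mitochondrial beta-oxidation enzymes, 3 were higher and 8 did not pass. Acadl, the long-chain acyl-CoA dehydrogenase, was at 151, 155 and 145 CPM in DSS WT and 188, 273 and 233 in DSS DKO (log2 fold change 0.63 ± 0.14, adjusted p = 0.0142). Acaa2, a thiolase that closes the cycle, was at 144, 160 and 155 CPM in DSS WT and 172, 287 and 331 in DSS DKO (0.78 ± 0.21, adjusted p = 0.0350). Eci2, an isomerase that prepares unsaturated fatty acids for the cycle, was at 37.2, 41.7 and 41.7 CPM in DSS WT and 46.4, 74.9 and 76.2 in DSS DKO (0.71 ± 0.17, adjusted p = 0.0213). All 3 genes had DSS DKO libraries above all DSS WT libraries, with replicate 1 the lowest.

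Hadha and Hadhb, the subunits of the trifunctional protein that carries out the later steps on long chains, did not pass, with Hadha at 0.33 ± 0.15 (adjusted p = 0.170) and Hadhb at 0.39 ± 0.18 (adjusted p = 0.196) on the log2 scale. Hadha was at 518, 564 and 556 CPM in DSS WT and 521, 798 and 747 in DSS DKO, so that replicate 1 lay among the WT libraries and the other two far above them. The medium-chain and very long-chain dehydrogenases Acadm and Acadvl, the hydroxyacyl-CoA dehydrogenase Hadh, the reductase Decr1 and the isomerases Ech1 and Eci1 lay between -0.16 and 0.35 and overlapped between genotypes.

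The electron transfer flavoprotein subunits Etfa and Etfb and the oxidoreductase Etfdh, which pass electrons on to the respiratory chain, had log2 fold changes of -0.02 ± 0.12, -0.26 ± 0.24 and 0.13 ± 0.13, and none passed. Etfb stood apart in its level. Per kilobase of exon, its level was 4.34 CPM and that of its partner Etfa 112 CPM in baseline WT, and 3.52 and 159 CPM in DSS DKO, a gap whose source was not tested.

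In the peroxisome, which shortens very long fatty acids, 1 of 3 members passed. Acaa1b, a peroxisomal thiolase, was at 7.31, 4.92 and 5.96 CPM in DSS WT and 10.1, 16.6 and 13.4 in DSS DKO (log2 fold change 1.14 ± 0.29, adjusted p = 0.0253), with no overlap. Its near copy Acaa1a was at 70.1, 39.4 and 40.8 CPM in DSS WT and 72.5, 79.8 and 62.9 in DSS DKO (0.52 ± 0.20, adjusted p = 0.119). The pair is identical at 96.6% of coding bases, with a run of 327, so reads of the more abundant gene could be counted for the other. Ehhadh, the bifunctional enzyme that acts before the thiolases, had a log2 fold change of 0.08 ± 0.18.

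Bdh1, which interconverts the ketone bodies acetoacetate and beta-hydroxybutyrate, was the only ketone body enzyme among the members. It stood at 136 and 162 CPM in baseline WT, 170, 174 and 176 in baseline DKO, 223, 218 and 225 in DSS WT, and 189, 154 and 203 in DSS DKO. The DSS DKO libraries all lay below the DSS WT libraries, by -0.29 ± 0.12 on the log2 scale, and the difference did not pass (adjusted p = 0.135).

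Groups that did not overlap were counted as well. After DSS, all DKO libraries lay above all WT libraries in 13 members and below in 3 of the 38, where 14.0% and 17.9% of all genes did so.

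The 3 DSS DKO libraries were not alike in these genes. Replicate 1 was the lowest of the 3 in 30 of 38 members (78.9%), where it was lowest in 35.4% of all genes tested. It was also lowest in all 11 members called higher, and in 63.0% of all genes called higher. Relative to the mean log2 CPM of DSS WT, the median over the 38 members was -0.00 in replicate 1, 0.50 in replicate 2 and 0.41 in replicate 3, against 0.01, 0.01 and -0.02 over all genes. Replicates 2 and 3 both lay above every DSS WT library in 24 members (63.2%) and in 22.7% of all genes, and with replicate 1 included the count of members was 13.

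**Figure D3:**
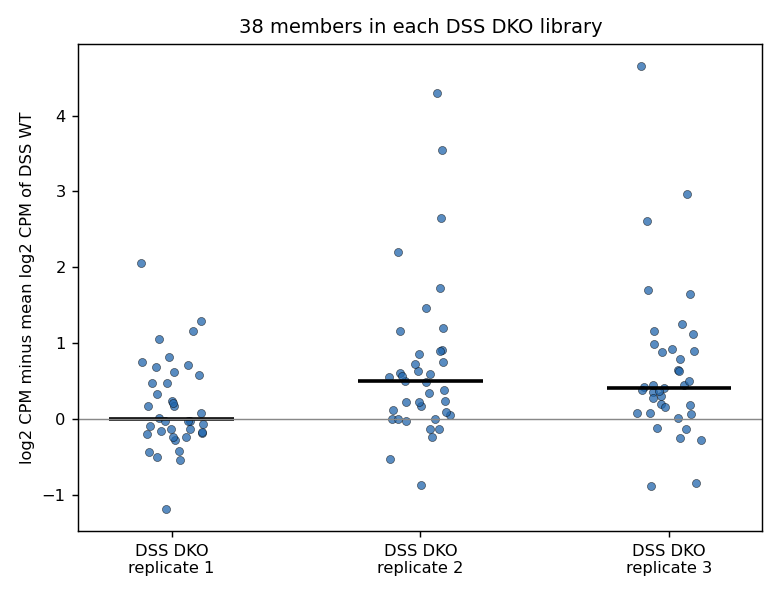
Log2 CPM of each of the 38 members minus its mean log2 CPM in DSS WT (y axis) in each DSS DKO library; points are members and black bars are medians. The bar of replicate 1 lies at -0.00, and those of replicates 2 and 3 at 0.50 and 0.41.

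Without replicate 1, calls over all genes rose from 11.2% to 16.0%, and 16 members were higher and 1 lower, the added ones including Acot1 (log2 fold change 1.21 ± 0.18), Hadha (0.50 ± 0.11) and Hadhb (0.61 ± 0.12). Without DSS DKO replicate 2, DSS WT replicate 2 or DSS WT replicate 3, the members called higher fell to 3 in each fit, with 691, 856 and 866 of all genes called, and without DSS DKO replicate 3 to 7, with 9.87%. Angptl4, Acot2, Slc25a20 and Fabp2 passed in all 19 alternative fits. Vnn1, Acadl and Acaa1b lost their call in 3 of 19, Pdk4 in 5, Eci2 in 7, Acaa2 in 8 and Cpt1a in 9, and Fabp1 in 4 of the 15 fits that tested it. For each of these genes but Fabp1 the fits without DSS DKO replicate 2, DSS WT replicate 2 and DSS WT replicate 3 were among those that ended the call, and for Fabp1 those without either baseline WT library, DSS WT replicate 2 or DSS WT replicate 3. The highest adjusted p over these fits was 0.129 for Acaa2, 0.123 for Cpt1a, 0.0709 for Pdk4 and 0.0282 for Angptl4.

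At baseline, 0 members were higher and 0 lower in DKO, where 0.0260% of all genes passed, 0.0104% higher and 0.0156% lower. None had an unadjusted p under 0.05 by edgeR, and DESeq2 called 0 as well. The median log2 fold change was 0.10 over the members and 0.01 over all genes, and 9 members lay higher and 3 lower with no overlap (9.92% and 10.3% of all genes did so). Angptl4 had the largest value above trace level, 0.78 ± 0.75. In simulated counts the baseline test found 25.4% of 2-fold changes, so the lack of calls does not show a lack of difference.

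Whether the difference between genotypes was larger after DSS than at baseline was tested as an interaction. Since sex and DSS cannot be told apart here, a genotype difference that varies with DSS cannot be told from 1 that varies with sex. It passed in 0 members and in 1.57% of all genes (0.773% higher, 0.794% lower), with 13 members at an unadjusted p under 0.05. The lowest adjusted p-values were those of Fabp2 (-1.10 ± 0.27, adjusted p = 0.0630), Fabp1 (adjusted p = 0.0776), Acot2 (1.32 ± 0.36, adjusted p = 0.0840), Ppargc1a (1.01 ± 0.28, adjusted p = 0.0851) and Slc25a20 (0.90 ± 0.25, adjusted p = 0.0882). DESeq2's Wald test called 4 members higher and 1 lower, and 7.14% of all genes. Without DSS DKO replicate 1 edgeR called 7.82% of all genes and 11 members higher, among them Angptl4 (3.64 ± 0.53), Pdk4 (2.10 ± 0.31) and Cpt1a (0.81 ± 0.19).

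In WT, 7 members were higher and 4 lower after DSS than at baseline, or 18.4% and 10.5% of them, where 33.4% of all genes passed, 16.9% higher and 16.5% lower. The share of members called higher was near that of all genes, and the median log2 fold change was 0.18 against -0.01. With no overlap, 17 members were higher and 9 lower, where 31.9% and 31.6% of all genes were. The receptors changed in opposite directions. Ppara, with the levels given above, rose by 1.38 ± 0.30, and every DSS library lay above every baseline library. Ppard went from 217 and 152 CPM at baseline to 65.0, 29.3 and 36.3 CPM after DSS, a change of -2.09 ± 0.54 (adjusted p = 0.0176). The call of Ppard held in 16 of 19 alternative fits and that of Ppara in all 19. Pparg, at 93.9 and 137 CPM in baseline WT, did not pass (0.42 ± 0.19, adjusted p = 0.105).

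Bdh1 rose by 0.57 ± 0.13 in WT (adjusted p = 0.00700). Decr1, an auxiliary reductase for unsaturated fatty acids, went from 75.1 and 81.5 CPM to 118, 134 and 136 CPM (0.73 ± 0.16, adjusted p = 0.00556). Acadvl went from 157 and 130 CPM to 217, 231 and 244 CPM (0.68 ± 0.15, adjusted p = 0.00494). For these 3 genes all DSS WT libraries lay above both baseline ones.

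Eci1 (0.56 ± 0.18), Etfa (0.52 ± 0.14) and Acsl5 (0.41 ± 0.11) rose as well, with calls that held in 13, 17 and 15 of 19 alternative fits. Acaa1a went from 90.3 and 112 CPM to 70.1, 39.4 and 40.8 CPM, a change of -1.01 ± 0.22 (adjusted p = 0.00534), and fell with no overlap. Acot2 (-0.76 ± 0.27, adjusted p = 0.0461) and Crat (-0.57 ± 0.18, adjusted p = 0.0303) were lower too, though the call of Acot2 was lost in 10 of 19 alternative fits, among them the replicate block, and that of Crat in 5. With baseline WT replicate 1 left out, 2 members were higher and 1 lower, and 13.5% of all genes passed. The lower count was also 1 without baseline WT replicate 2 (20.3% of all genes) or DSS WT replicate 2 (21.8%), and without DSS WT replicate 3 (21.3%) the counts were 4 higher and 1 lower.

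In DKO, 17 members were higher and 2 lower after DSS, or 44.7% and 5.26% of them, where 23.6% of all genes passed, 12.6% higher and 11% lower. The median log2 fold change was 0.43 over the members and 0.01 over all genes, and with no overlap 13 members were higher and 4 lower, where 20.4% and 19.6% of all genes were. Angptl4 (5.11 ± 0.69), Pdk4 (2.96 ± 0.48), Vnn1 (2.13 ± 0.38) and Ppara (1.69 ± 0.26) rose most above trace level. Of 11 mitochondrial beta-oxidation enzymes 7 rose, from Acadm (0.44 ± 0.13) to Acaa2 (0.73 ± 0.21), and 0 fell. Ppargc1a was at 46.0, 53.0 and 41.0 CPM in baseline DKO and at 53.3, 84.4 and 94.2 in DSS DKO (0.73 ± 0.19, adjusted p = 0.0160), with replicate 1 barely above the highest baseline library.

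Acaa1b (0.95 ± 0.29), Acot1 (0.86 ± 0.28), Slc25a20 (0.57 ± 0.17), Etfa (0.42 ± 0.12) and the trace gene Fabp1 completed the higher members. The calls of Acaa1b, Slc25a20 and Etfa each held in 13 of 19 alternative fits. That of Acot1 held in 10 of 19, and that of Fabp1 in 5 of the 15 that tested it. Fabp2 fell by 1.01 on the log2 scale (SE 0.18, adjusted p = 0.00268). Ppard was at 216, 240 and 179 CPM in baseline DKO and fell to 101, 40.9 and 22.7, by 1.95 on the log2 scale (SE 0.51, adjusted p = 0.0228). This comparison shares its DSS DKO libraries with that of the genotypes after DSS, so their calls are not independent.

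Several libraries moved these counts. With both baseline DKO libraries high in 18S RNA left out, a choice made after seeing the data, 1 member was higher and 1 lower after DSS in DKO, where 4.58% of all genes passed, and 7 were higher between genotypes after DSS, where 7.56% did. Leaving out DSS DKO replicate 1 gave 24 higher after DSS in DKO (30.2% of all genes called), and leaving out DSS DKO replicate 2 or 3 gave 5 (15.5%) or 6 (17.8%). Without baseline DKO replicate 1, 2 or 3 the count was 10 (17.9%), 6 (13.5%) or 9 (20.8%). Calls over all genes thus moved in the same direction as those of the members in each of these fits.

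**Figure D4:**
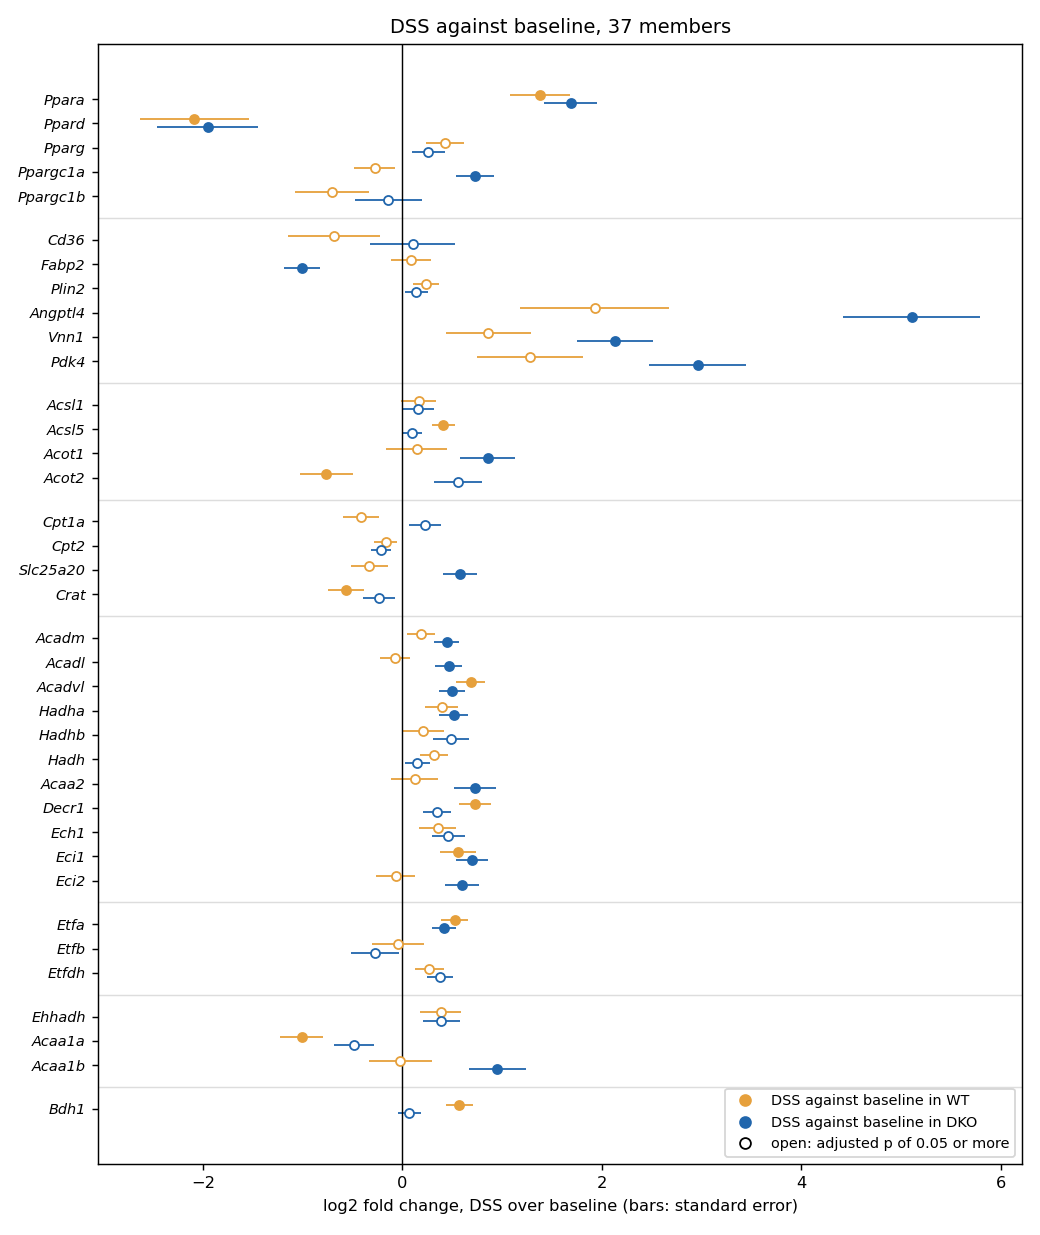
Log2 fold change of DSS over baseline (x axis, with standard errors) for 37 members in WT (orange) and DKO (blue), ordered by role; filled points had an adjusted p under 0.05, and Fabp1 is left out. Ppara is filled to the right and Ppard to the left of 0 in both genotypes, and Angptl4, Pdk4 and Vnn1 are filled in DKO alone, where the difference between genotypes (the interaction) did not pass.

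**Figure D5:**
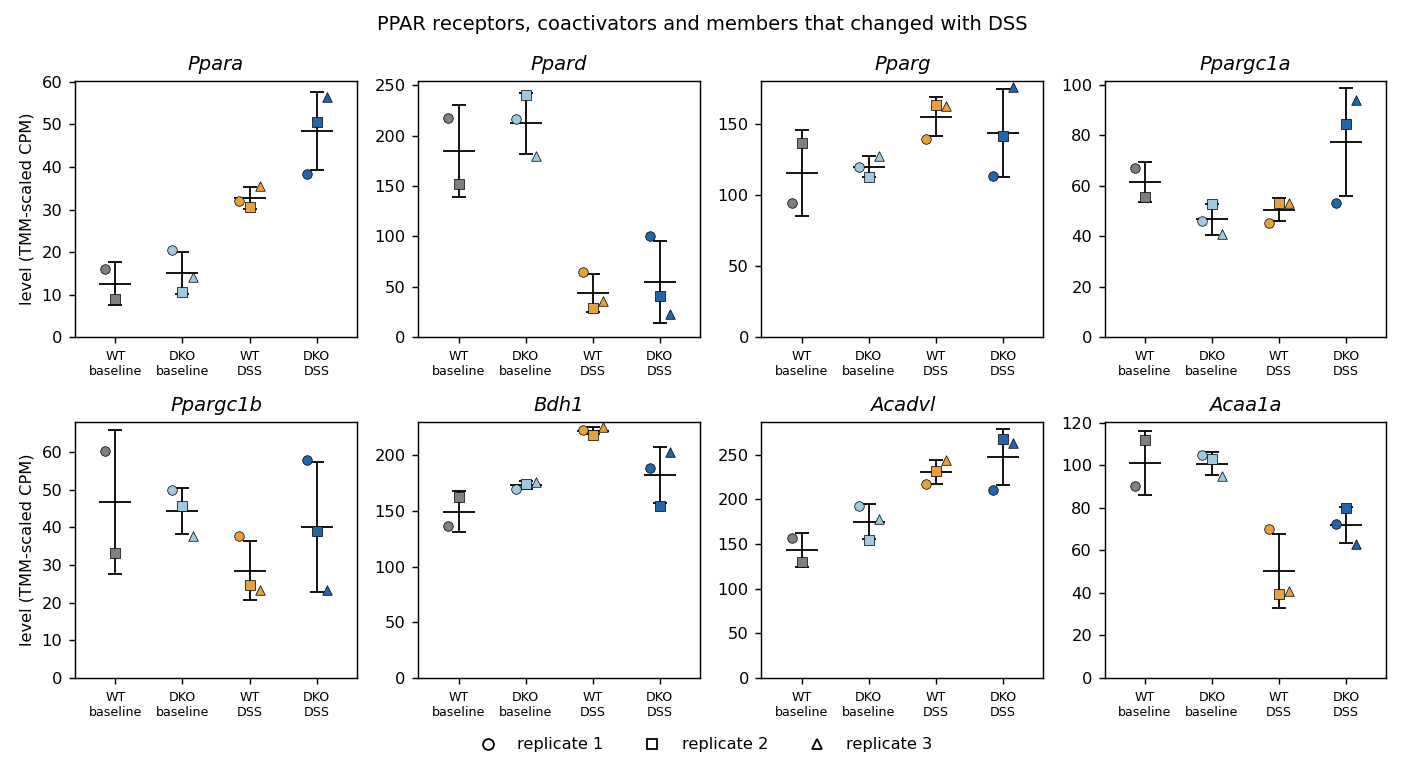
Levels (TMM-scaled CPM, y axes from 0) of the 3 PPAR genes, both coactivators, Bdh1, Acadvl and Acaa1a in each library, by group; points are libraries, horizontal lines group means and bars 1 SD. Ppara is higher and Ppard lower in every DSS library than in every baseline library.

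Other genes of the same pathway were read from a list of 86, of which 78 could be tested. The list was chosen with earlier results of these data known, so its counts are not independent support. Between genotypes after DSS, DKO was higher in 13 and lower in 4, or 16.7% and 5.13% of those tested. Of all genes, 5.26% were higher and 5.98% lower. The median log2 fold change was 0.26 over the list and 0.03 over all genes. Those higher included Pex11a, a peroxisome division factor and PPAR target (1.07 ± 0.16), the carnitine transporters Slc22a5 (0.79) and Slc22a21 (0.94), and Creb3l3, a transcription factor of fasting metabolism (2.03 ± 0.29). Slc22a5 was at 61.0, 61.6 and 67.0 CPM in DSS WT and 66.6, 112 and 150 in DSS DKO, so replicate 1 lay among the WT libraries. Those lower included Oxct1, which commits ketone bodies to oxidation (-1.12 ± 0.14), and Acss2, a cytosolic acetyl-CoA synthetase (-0.63 ± 0.11).

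Oxct1 was at 217, 238 and 220 CPM in DSS WT and 130, 93.0 and 88.5 in DSS DKO, and Creb3l3 at 2.66, 1.49 and 2.39 and 6.05, 11.7 and 8.96 CPM. These were also the genes of the list in which the interaction passed, with Acss2, at adjusted p = 0.0289 for Oxct1, 0.0277 for Creb3l3 and 0.0439 for Acss2. The interaction passed in 3.85% of the list and 1.57% of all genes. Of 17 enzymes of the citric acid cycle, which burns the acetyl-CoA made by beta-oxidation, 2 were lower in DKO after DSS (Idh3a and Dld). That was 11.8% of them, where 5.98% of all genes were lower. None was higher, where 5.26% of all genes were, and the median was -0.13. At baseline 0 genes of either list passed, where 0.0260% of all genes did.

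Of 10 surface colonocyte markers, the comparison of genotypes after DSS called 2 up in DKO and 1 down, and after DSS against baseline 0 were higher and 7 lower in DKO, and 1 and 5 in WT. Their summed level was 7502 to 8949 CPM in DSS DKO, 9670 to 10293 in DSS WT, 11148 to 13198 in baseline WT and 11624 to 14093 in baseline DKO. Of 10 epithelial markers 0 passed between genotypes after DSS, and after DSS in DKO 0 were higher and 4 lower, with sums of 11082 to 13005 CPM in DSS DKO, 13143 to 14719 in DSS WT, 12710 to 14335 in baseline WT and 15431 to 17272 in baseline DKO. No marker of either list was at 0, and the part of these cells in the results was not tested.

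Markers of other cells and positions were read as well, and their sums did not all follow the same groups as the members. Of 10 markers of the small intestine and the proximal gut, where fatty acid binding proteins are also abundant, 6 had a higher level and 1 a lower level in DKO after DSS. Their summed level was 358 to 561 CPM in DSS DKO, 134 to 179 in DSS WT, 148 to 170 in baseline WT and 141 to 222 in baseline DKO, and Apoa4 was at 0 in baseline DKO and DSS WT. Slc10a2 and Apob supplied most of the DSS DKO sum. Slc10a2 was at 116, 164 and 223 CPM in DSS DKO and at most 23.7 in DSS WT. Apob was at 168, 203 and 240 CPM in DSS DKO and 114, 92.6 and 72.8 in DSS WT. The binding protein Fabp6 went the other way, at 3.28, 1.66 and 1.95 CPM in DSS DKO and 8.23, 11.6 and 6.86 in DSS WT. The member Fabp2 was lower as well. Of 10 neutrophil markers 5 were higher, summing to 175 to 252 CPM in DSS DKO and 64.4 to 76.2 in DSS WT, with 49.2 to 56.9 and 47.5 to 74.3 in baseline WT and DKO and none at 0. Ly6g supplied most of the DSS DKO sum, at 113, 144 and 135 CPM, against 39.0, 26.8 and 25.4 in DSS WT. By log2 fold change 9 of the 10 were positive and 1, Csf3r, was negative. Of 10 T cell markers 7 were lower, at 27.3 to 55.6 and 107 to 120 CPM, with 19.8 to 36.2 and 20.5 to 31.6 at baseline. Of 10 macrophage and dendritic cell markers 1 was lower between genotypes after DSS and 5 were higher after DSS in each genotype, at 79.2 to 115 CPM in DSS DKO, 116 to 137 in DSS WT, 53.3 to 54.5 in baseline WT and 59.0 to 72.7 in baseline DKO. Their part in the results was not tested.

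Of 10 fibroblast and muscle markers 3 were higher in DKO after DSS, while their sum was 227 to 372 CPM in DSS DKO, 293 to 343 in DSS WT, 270 to 331 in baseline WT and 214 to 529 in baseline DKO. By log2 fold change 5 of the 10 were positive and 5 negative. Dcn, a matrix protein of fibroblasts, was at 12.6, 47.8 and 57.5 CPM in DSS DKO and 6.92 to 10.3 in DSS WT. Col1a1, the most abundant of the list, was at 118, 111 and 167 CPM in DSS DKO and 192, 183 and 159 in DSS WT. The part of fibroblasts was not tested. Of 7 adipocyte markers tested of 10, 1 was higher. Their sum was 251 to 402 CPM in DSS DKO, 229 to 248 in DSS WT, 330 to 344 in baseline WT and 306 to 337 in baseline DKO. Most of it was Pck1, an enzyme that epithelium also makes, and the defining adipocyte genes Adipoq and Plin1 were at 0 to 0.303 and 0 to 0.111 CPM over all libraries.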

How the data were processed

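The authors deposited 1 table of counts per gene, raw and not normalized, for 11 libraries, and every column was matched to a sample by its name. The labels' protocols name oligo(dT) enrichment and the NEBNext Ultra II kit. The submitters' processing notes name STAR and mm10. The STAR version, read counter, annotation and use of strand were not given in the sources used here, so reads of antisense or overlapping genes may be mixed.

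Analysis used edgeR 4.0.16 in R 4.3.3: filterByExpr with a minimum count of 10 (19267 genes, all 38 members among them), TMM scaling, and a robust quasi-likelihood fit with 1 mean per group over all 11 libraries (common biological coefficient of variation 0.234). Tests were two-sided with Benjamini-Hochberg adjustment over all genes. A standard error is the log2 fold change over the square root of F. Replicates differed beyond sampling noise (chi-square per degree of freedom 14.4 to 788), and p-values measure only the spread between these samples. The method was tested on simulated counts. Each fold was given to 66 or 67 genes picked at random from those that passed the filter, at any level. Between genotypes after DSS the method recovered 1.49% of 1.5-fold, 49.3% of 2-fold and 69.7% of 4-fold changes, and 6 of 86 calls were false. The data gave 2165 calls in that comparison, so there a larger p-value sufficed for a call than in the simulation. These shares are therefore not the power for the members. At baseline the method recovered 0%, 25.4% and 56.1%. Members that did not pass may therefore still differ.

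The members and gene lists were chosen with earlier results of these data known. Members were all reported, with values per library for those that passed (up to 12 per comparison), the PPAR genes and Bdh1; other members are given by range and count. Positions and 3′ UTRs are from GENCODE M21 (GRCm38); promoters and microRNAs from RefSeq (GRCm38.p6), in which 32 of 38 members had a promoter entry. Alternatives were other scalings, filters, DESeq2 1.42.0, a fit to the compared groups alone, a replicate block, no 18S entry, and each library left out.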

Additional observations from a re-analysis of the deposited data

How the results depend on the processing

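Over 19 alternative settings and 3546 values of single members, 3304 kept their direction or call, 160 lost a call, 82 gained one and 0 called values reversed; 123 values that were never called changed sign. In a fit to the 2 groups compared, 6 members were higher between genotypes after DSS, where 7.92% of all genes were called. In such fits 11 were higher after DSS in WT (38.6% of all genes called) and 5 in DKO (18.2%). With no filter on low counts, 7 were lower after DSS in WT (18.5% of all genes called). The interaction then passed in 7 higher and 1 lower (3.92%), and with DESeq2's Wald test in 4 and 1 (7.14%). Without both baseline DKO libraries high in 18S RNA, 7 were higher between genotypes after DSS (7.56% of all genes called). After DSS in DKO 1 was higher and 1 lower (4.58%). With each library left out in turn, the members higher between genotypes after DSS numbered 3 to 16 and lower 1 to 1; after DSS in WT 2 to 10 higher and 1 to 5 lower; after DSS in DKO 5 to 24 and 1 to 3; in the interaction 0 to 11 and 0 to 1; and between genotypes at baseline 0 to 0 in either direction. Over all genes, the 2165 calls between genotypes after DSS became 691, 856 and 866 without DSS DKO replicate 2, DSS WT replicate 2 and DSS WT replicate 3, and 1372 in a fit to those 6 libraries. Where a count moved, the cause was not tested, beyond the smaller number of libraries in such fits. The labels number replicates alike across groups. The deviations of same-numbered libraries from their group means correlated at over 0.1 in 4 of 15 pairs (-0.07 to 0.30). Between DSS DKO and DSS WT the correlations were 0.30, 0.02 and 0.20 for replicates 1, 2 and 3, and -0.30 to 0.16 for differently numbered libraries. The numbers were not taken as pairs, and a replicate block was fitted as an alternative. It called 12 members higher and 1 lower between genotypes after DSS (11.6% of all genes called). It called 9 and 3 after DSS in WT (31.5%), 17 and 2 in DKO (27.5%), and 0 in the interaction (1.65%) and at baseline (0.0156%). Counting error limits Fabp1 and Cd36 among the members.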
